A study of Drosophila melanogaster with 4 samples.

Results

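Long gaps without H3K27me2 are stretches of at least 20000 bp in which no enriched region was listed. They were taken from the deposited region list of the whole series, as the sequence between consecutive regions on the arms 2L, 3L, 3R and X and on chromosome 4. There were 641 such gaps among 11754 gaps of any length on these 5 sequences. They were chosen by the region calls themselves, so their number, length and lack of enrichment are descriptions of that list and were not tested. The list was made by chromatin immunoprecipitation and sequencing (ChIP-seq) of H3K27me2, with the antibody Ab24684, in nuclei from heads of wild-type Oregon-R flies. The stage label was mixed adult, the flies came from population cages, heads of many flies were pooled by sieving, and the labels give no sex. The single group held 2 ChIP replicates with 1 input each, and no mutant or treatment. Whether the replicates are separate collections is not stated in the labels, and their spread may therefore be technical.

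H3K27me2 is the dimethylated form of lysine 27 of histone H3. It is placed by Polycomb repressive complex 2, whose catalytic subunit in flies is Enhancer of zeste, and the same enzyme adds a further methyl group to give H3K27me3. In flies H3K27me2 is known as an abundant mark spread over much of the chromatin that is not transcribed. It is known to be scarce at transcribed genes and at Polycomb target loci, where H3K27me3 prevails over long stretches. The Hox gene clusters, both of which lie on arm 3R, are the classical Polycomb targets. Which genes lie in the gaps was not analysed here, because the gene table used holds FlyBase release 6 and the region lists hold release 5. Neither H3K27me3 nor transcription was measured in the files used here, and alignability is not recorded in the lists. A gap therefore means only that no region was called.

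The series' list held 11772 regions on the 5 sequences, and the lists of replicate 1 and replicate 2 held 7009 and 6790. The lists give no read numbers, so the depth behind each gap is unknown. Each region carries the authors' own score, for which no scale is stated, and it was used only to describe regions within 1 list. All positions are 1-based on FlyBase release 5.

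A small number of long gaps held a large part of the sequence between regions. The 641 long gaps were 5.45% of all gaps but held 49.5% of the bases lying in gaps, which amounts to 29.6 Mb, or 29.8% of the 5 sequences. Their median length was 33595 bp, against 1187 bp for the 11113 gaps under 20 kb. Most long gaps were near the short end of the class. There were 471 gaps of 20 to 50 kb, 127 of 50 to 100 kb, 33 of 100 to 200 kb and 10 of 200 kb and over. These classes held 14.2, 8.53, 4.20 and 2.65 Mb. The 159 longest gaps together reached 50% of the long-gap sequence. Nothing in the lengths set the limit apart: the 3 gaps just inside it measured 20082, 20033 and 20009 bp, and the 3 just outside it 19993, 19986 and 19968 bp.

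**Figure D1:**
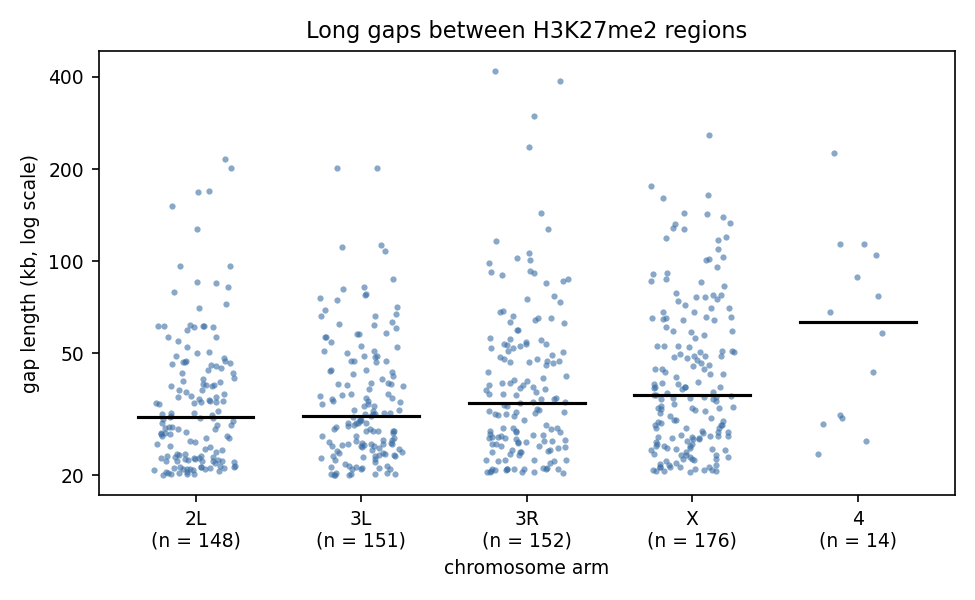
Length of each long gap (kb, log scale) on the 5 sequences, with 1 point per gap and a black bar at the median. Medians lay between 30.9 kb on 2L and 63.2 kb on 4, and 3R held the 3 longest gaps.

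Long gaps lay on all 5 sequences, at unequal density. They took up 26.4% of 2L (148 gaps), 24.5% of 3L (151 gaps) and 27.2% of 3R (152 gaps). On X they took up 39.5% (176 gaps), and on chromosome 4, the small dot chromosome, 76.6% (14 gaps). X made up 22.6% of the 5 sequences and held 29.9% of the long-gap bases. Per Mb there were 6.43 long gaps on 2L, 6.15 on 3L, 5.45 on 3R, 7.85 on X and 10.4 on 4. X differed from the autosomal arms in its gaps of middle length rather than in the longest ones. Gaps of 100 to 200 kb numbered 17 on X, against 4 on 2L, 3 on 3L and 6 on 3R, and took up 9.91% of X. Gaps of 200 kb and over numbered 1 on X, against 2 on 2L, 2 on 3L and 4 on 3R. Outside the long gaps, the replicates also listed less of X as enriched than of the autosomal arms. The share there was 19.1% of X in replicate 1, against 23.9% of 2L, 27.7% of 3L and 28.5% of 3R. In replicate 2 it was 10.7% of X, against 24.2%, 28.2% and 27.3% of these arms.

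**Figure D2:**
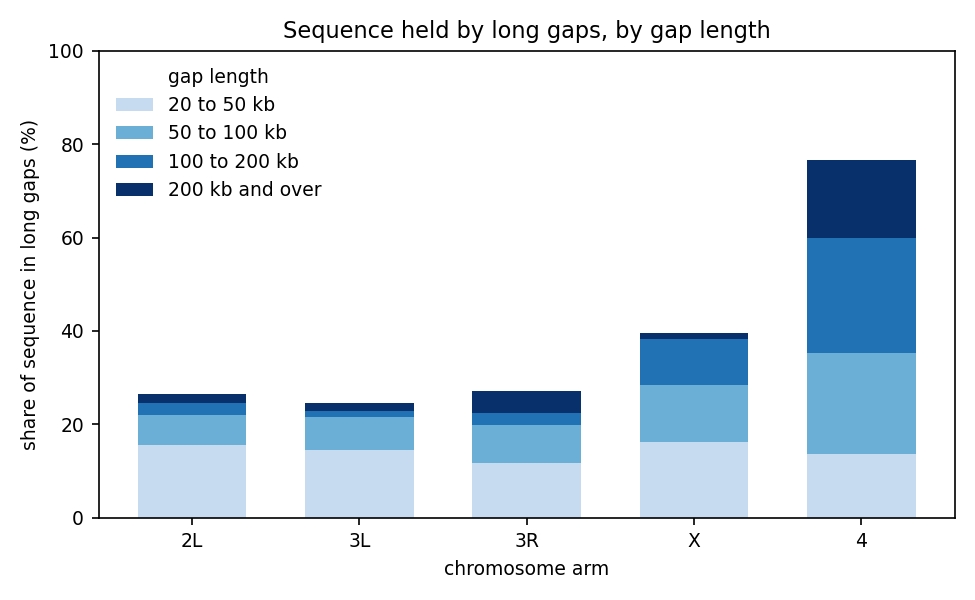
Share of each sequence (%) held by long gaps, stacked by gap length. The share was 24.5% to 27.2% on 2L, 3L and 3R, 39.5% on X and 76.6% on 4.

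Along the arms the long gaps were spread from telomere to centromere, with local highs and lows. When each arm was cut into 10 equal parts, the share in long gaps was between 14.0% and 34.6% on 2L, between 5.37% and 35.3% on 3L, between 17.1% and 38.2% on 3R and between 30.2% and 54.8% on X. The lowest of these parts was the one next to the centromere on 3L, with 4 long gaps. On 3R, by contrast, the part next to the centromere was among the highest, with 36.2% of its bases in long gaps.

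The longest gap lay on 3R from 2471921 to 2890180 and measured 418260 bp. Replicate 1 covered 136 bp of it and replicate 2 none. In replicate 1 the matching gap was 419352 bp long, and in replicate 2 it ran on to 509272 bp. The difference lay on the right side, where the series' list placed regions of 1491 and 1863 bp with scores of 0.37 and 0.33 in a run of 3 long gaps. That run spanned 509032 bp (2471921 to 2980952), of which 99.3% was gap. Replicate 1 overlapped 1 of these 2 regions and replicate 2 neither. Replicate 1 also covered 3321 bp (6.57%) of the second gap of the run, from 2891672 to 2942192, of which replicate 2 covered 0 bp.

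The second longest gap had nearly the same borders in all 3 lists. It lay on 3R from 12450647 to 12839016 (388370 bp). The matching gap was 388900 bp in replicate 1 and 388593 bp in replicate 2, and no edge differed by more than 444 bp from that of the series' list. Its left border region was 4876 bp wide with a score of 0.49, and its right border region 2070 bp wide with a score of 0.43, and both replicates overlapped both. Outside this gap the cover was uneven. In the 50 kb to its left the replicates covered 44.8% and 43.8%, and in the 50 kb to its right 2.91% and 7.17% (replicate 1 first).

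The next 2 gaps of 3R by length had less similar borders in the lists. The gap from 6203589 to 6501759 (298171 bp) held 0 bp of either replicate, and the matching gaps were 300287 bp in replicate 1 and 319048 bp in replicate 2. Its left border was a weak region of 1530 bp, with a score of 0.19. The gap from 17163164 to 17398518 (235355 bp) was also empty in both, with matching gaps of 288474 and 292094 bp. Both replicates thus listed wider gaps there than the series' list.

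On the other sequences the longest gaps ranged from sharply bordered to open-ended. On 3L the gap from 12565388 to 12766803 measured 201416 bp in the series' list, 201658 bp in replicate 1 and 201877 bp in replicate 2. The gap on 3L from 6756693 to 6958205 measured 201513 bp, with matching gaps of 203709 and 207256 bp. Both 3L gaps were therefore nearly of one length in all lists. On 2L the gap from 11284028 to 11499312 (215285 bp) widened to 240152 bp in replicate 1 and 262650 bp in replicate 2. The gap on 2L from 5351352 to 5552686 (201335 bp) widened to 216088 bp and 437387 bp, and was thus more than 2 times as long in replicate 2. Its border regions were 1170 and 1430 bp wide and neither replicate overlapped either of them.

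The longest gap of X ran from 4264071 to 4523391 (259321 bp) and was empty in both replicates. It widened to 284697 bp in replicate 1 and 414893 bp in replicate 2. The next on X, from 20455959 to 20632112 (176154 bp), was parted from another gap of 119351 bp only by a region of 1001 bp with a score of 0.57. Neither replicate overlapped that region, and the gaps there were 313141 bp in replicate 1 and 384485 bp in replicate 2. The same held from 8479277 to 8747525, where a region of 1225 bp, overlapped by neither replicate, stood between gaps of 127516 and 139508 bp. There the gap was 281974 bp in replicate 1 and 458909 bp in replicate 2. Neither replicate's list thus parted the gaps at these sites.

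Among the 20 longest gaps (139508 bp and over), 7 lay on X, 5 each on 2L and 3R, 2 on 3L and 1 on 4. Of these 20, 15 held no base of either replicate, and in every one the matching gap was longer than the series' gap in both replicates. The series' list holds nearly all of the replicates' calls, so longer matching gaps are largely fixed by the choice of gaps. The median ratio of lengths was 1.11 in replicate 1 and 1.22 in replicate 2, against 1.25 and 1.69 over all long gaps. The 40 border regions of the 20 longest gaps were 1001 to 7360 bp wide and scored 0.19 to 0.66. Neither replicate overlapped 21 of these 40 borders, where the background over all regions was 39.9% overlapped by neither.

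Cover by the replicates inside the long gaps was low, as the choice of gaps largely fixes. Regions of replicate 1 covered 114985 bp (0.388%) and regions of replicate 2 covered 24067 bp (0.0813%), which gives 0.235% ± 0.217 (mean ± SD, n = 2). Outside the long gaps the same lists covered 25.3% and 23.5%, or 24.4% ± 1.24 (mean ± SD, n = 2). Over the 5 sequences together, the cover in replicate 1 was 4.78 times that in replicate 2, while outside the gaps the replicates were close. By sequence, replicates 1 and 2 covered 26359 and 5262 bp of the gaps on 2L, and 19319 and 10961 bp on 3L. They covered 22293 and 3873 bp on 3R, 45426 and 2486 bp on X, and 1588 and 1485 bp on 4. Outside the gaps they differed on X (19.1% and 10.7%) and on 4 (13.2% and 20.0%). The cover also depended on gap length. Replicate 1 covered 0.530% of the gaps of 20 to 50 kb, 0.438% of those of 50 to 100 kb, 0.0474% of those of 100 to 200 kb and 0.00711% of those of 200 kb and over. Replicate 2 covered 0.126%, 0.0700%, 0% and 0.00386% of the same classes.

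No base of either replicate lay in 368 of the 641 long gaps (57.4%). Among all gaps the share was 68.7%, and since short gaps have less sequence to be touched, the shares are not read against each other. Replicate 1 alone touched 210 long gaps, replicate 2 alone 53, and both touched 10. With the list of replicate 2 alone 578 gaps were untouched, and with that of replicate 1 alone 421. Of 263 pieces of replicate 1 within long gaps, 1 overlapped a piece of replicate 2. The series' list holds nearly all of the replicates' calls, so this low overlap is largely fixed by the choice of gaps. It does not measure how well the replicates agree.

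Most of these pieces were overhangs of border regions, but most of the bases were in regions lying wholly inside a gap. In replicate 1, 220 pieces reached in from an edge, with a median of 99 bp, and 43 regions lay wholly inside, with 62.5% of the covered bases. In replicate 2, 55 pieces reached in, with a median of 49 bp, and 12 regions lay inside, with 71.1% of the covered bases. The regions inside were short. In replicate 1 their median width was 1591 bp, and in replicate 2 it was 1415 bp. The widest was a region of 2934 bp of replicate 1 on 3L, from 8458597 to 8461530. In replicate 1, 20 of the 43 lay on X, and in replicate 2, 1 of the 12, where X held 29.9% of the long-gap bases. Replicate 1 had 1188 of its 7009 regions on X, and replicate 2 had 770 of its 6790. In replicate 1 the median score of the regions inside was 0.67 on 2L, 0.63 on 3L, 0.56 on 3R and 0.79 on X. These medians rest on 11, 5, 6 and 20 regions. All regions of replicate 1 on these arms had medians of 0.64, 0.65, 0.64 and 0.78, so the order was not the same on every arm. On chromosome 4 the only region of replicate 1 inside a gap scored 2.37, against a median of 0.56 for all its regions there. In replicate 2 the 12 regions had a median score of 0.52, against 0.61 for all its regions on the 5 sequences.

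Among gaps of at least 50 kb, the highest mean cover was in 3 gaps barely over that length. The gap on X from 10596467 to 10647055 (50589 bp) was covered to 11.3% by replicate 1 and 0% by replicate 2. The gap on 3R from 2891672 to 2942192, in the run described above, came next. The gap on 3L from 8417958 to 8468198 (50241 bp) was covered to 6.35% by replicate 1 and 0.0816% by replicate 2. In all 3 the cover came nearly wholly from replicate 1.

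**Figure D3:**
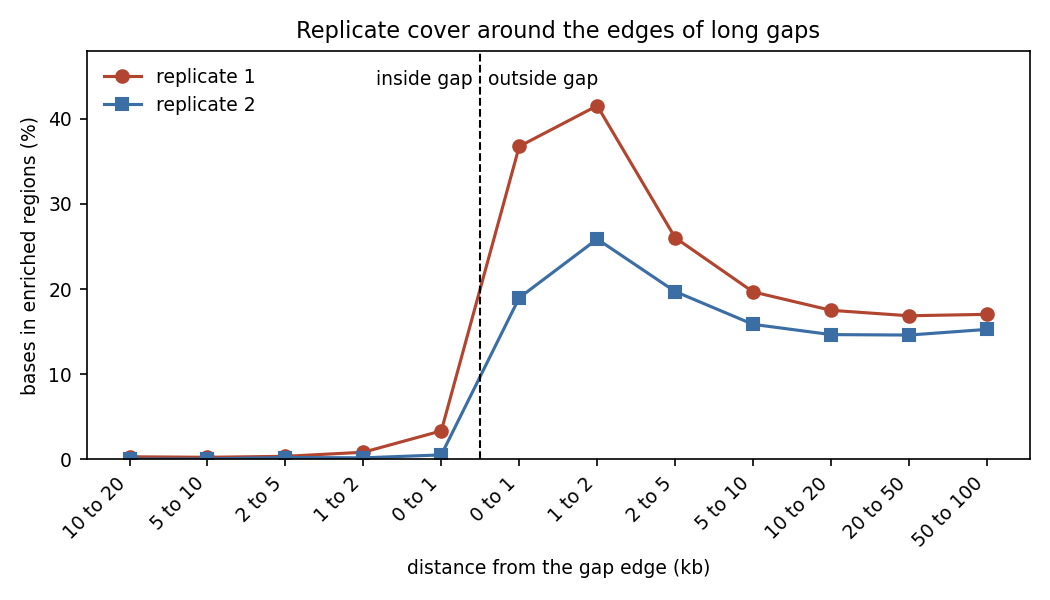
Share of bases in enriched regions of replicate 1 and replicate 2 (%) by distance from the edges of the 641 long gaps, inside (left of the dashed line) and outside. Cover stepped up at the edge, as the choice of gaps largely sets, peaked 1 to 2 kb outside at 41.5% and 25.9%, and levelled off from about 10 kb outward.

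Replicate cover stepped up at the gap edges, which the choice of gaps largely sets, since the series' regions end there and hold nearly all of the replicates' calls. Most replicate edges lay beyond the series' edge, at 1032 of 1282 edges in replicate 1 and 1213 in replicate 2, with a median reach of 1616 and 6618 bp over all edges. In the first kb inside, replicate 1 covered 3.35% and replicate 2 covered 0.524%, and from 10 to 20 kb inside they covered 0.306% and 0.0251%. In the first kb outside, which the series' list marks by definition, they covered 36.8% and 19.0%. Cover was highest 1 to 2 kb outside, at 41.5% and 25.9%, and came down to 19.7% and 15.9% at 5 to 10 kb and to 17.0% and 15.3% at 50 to 100 kb. These last values were close to the mean cover of the 5 sequences, 17.8% and 16.5%, with gaps included. Sequence near several gaps was counted once for each edge, and it can lie in a further gap. The edges of a replicate gap that held several long gaps were likewise counted once for each of them.

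Around the 43 gaps of 100 kb and over, cover outside depended on the distance. Of these gaps 18 lay on X and 4 on chromosome 4, where cover was low throughout. Over the 21 on 2L, 3L and 3R, cover 1 to 2 kb outside was 48.6% in replicate 1 and 36.4% in replicate 2, against 45.2% and 31.2% for all long gaps of these arms. At 10 to 20 kb it was 16.4% and 12.6%, against 19.8% and 18.0%, and at 50 to 100 kb it was 15.0% and 13.8%, against 19.3% and 19.0%. On these 3 arms, cover around the gaps of 100 kb and over was thus slightly higher 1 to 2 kb outside. At 2 to 5 kb it was lower in replicate 1 (20.6% against 28.9%) and slightly higher in replicate 2 (25.1% against 24.3%). It was lower in both replicates from 5 kb outward, with 13.9% and 17.2% at 5 to 10 kb, against 21.2% and 19.2%. The whole of these 3 arms was covered to 19.9% and 19.7%. Over the 18 on X, cover 1 to 2 kb outside was lower, at 23.1% and 11.5%, against 34.9% and 13.1% for all long gaps of X. At 50 to 100 kb outside the 18 it was 8.78% and 5.74%, against 11.7% and 6.46% for all of X. Around the 10 gaps of 200 kb and over, on all 5 sequences, cover 50 to 100 kb outside was 16.0% and 17.7%. It was 17.0% and 15.3% for all long gaps of the 5 sequences. For the long gaps of 2L, 3L and 3R, where most of the 10 lay, it was 19.3% and 19.0%. The 10 gaps were not split by arm. These differences were not tested.

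The regions that border long gaps were much like other regions of the list in score and width. There were 1189 of them, with a median score of 0.46 (interquartile range 0.40 to 0.55), against 0.45 (0.40 to 0.52) for the 10583 regions that border none. Their median width was 1974 bp (interquartile range 1332 to 3584 bp), against 2134 bp (1442 to 3791 bp). By arm, the median score of border regions was 0.44 on 2L, 0.43 on 3L, 0.44 on 3R, 0.54 on X and 0.37 on 4. The other regions had medians of 0.43, 0.44, 0.43, 0.54 and 0.38 in the same order. The borders were narrower than other regions on 2L (1869 against 2126 bp), 3L (2096 against 2256 bp), X (1776 against 1931 bp) and 4 (1678 against 1953 bp), and wider on 3R (2437 against 2298 bp).

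The median border width fell slightly with gap length, which was not tested. The length classes also differed in their arms. X held 17 of the 33 gaps of 100 to 200 kb, and the borders on X had a median width of 1776 bp. The class of 200 kb and over had only 20 border regions. Broad regions bordered long gaps about as often as they occurred elsewhere. The median border width was 1991 bp for gaps of 20 to 50 kb, 1894 bp for those of 50 to 100 kb, 1790.5 bp for those of 100 to 200 kb and 1724 bp for those of 200 kb and over. Regions of at least 10 kb made up 4.63% of the borders (55 regions) and 4.44% of the other regions (470). The widest of them, the region of 108653 bp on 3R, bordered a gap of 59615 bp (27397541 to 27457155) that neither replicate touched. No gap of 200 kb and over had a border region of 10 kb or more.

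**Figure D4:**
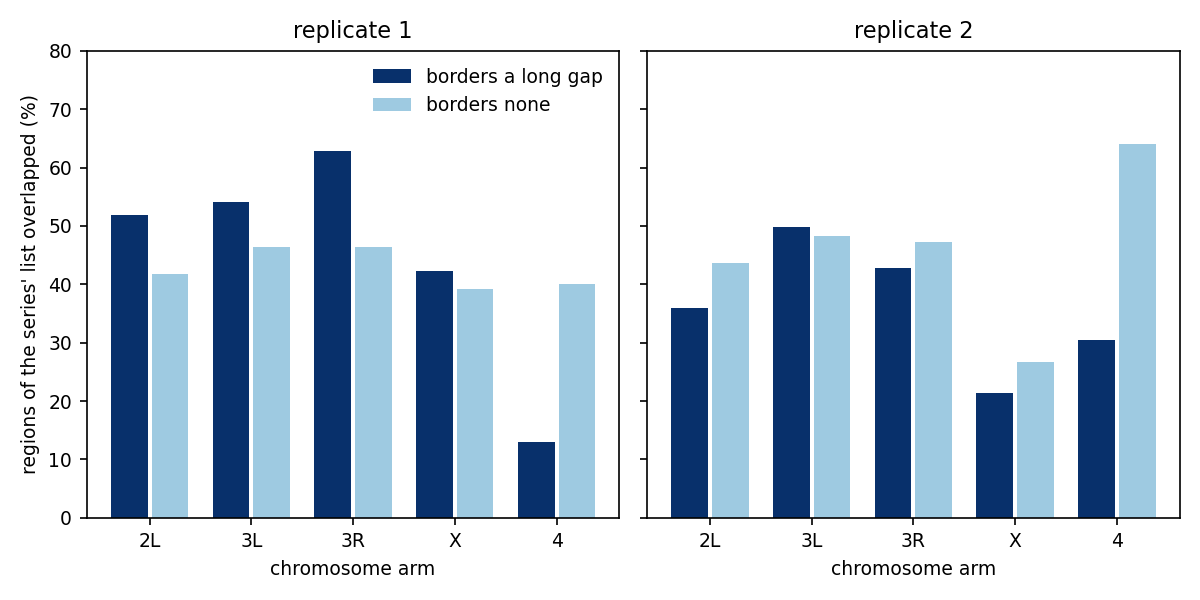
Share of regions of the series' list (%) overlapped by each replicate, for regions that border a long gap (dark) and regions that border none (light), by sequence. On 2L, 3R and X replicate 1 overlapped more of the borders and replicate 2 fewer of them, and on 4 both overlapped fewer of the borders.

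The replicates differed in how often they listed the borders. Replicate 1 overlapped 51.6% of the border regions and 43.7% of the others, whereas replicate 2 overlapped 36.8% of the borders and 42.3% of the others. Borders overlapped by neither replicate numbered 470 (39.5%), where the background over all regions was 39.9%, and those overlapped by both numbered 332 (27.9%), where the background was 26.2%. The direction in replicate 1 held on 2L, 3L, 3R and X, and that in replicate 2 on 2L, 3R, X and 4. On 3R the shares were 62.9% for borders and 46.4% for others in replicate 1, and 42.8% and 47.2% in replicate 2. On chromosome 4 they were 13.0% and 40.0% in replicate 1, and 30.4% and 64.0% in replicate 2, from 23 borders and 25 others. Among borders of 2000 bp and over, replicate 1 overlapped 80.9% and replicate 2 overlapped 65.9%, against 67.6% and 67.2% of other regions of that width.

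Nearly all long gaps were also long gaps in both replicates. For 631 of the 641 (98.4%), each replicate held a gap of at least 20000 bp that overlapped at least 50% of the series' gap. The count was 632 for replicate 1 and 640 for replicate 2. The series' list holds nearly all of the replicates' calls, so this count is largely fixed by the choice of gaps. The replicates had far more long gaps of their own. Replicate 1 held 1076 gaps of at least 20000 bp, which took up 53.0% of the 5 sequences, and replicate 2 held 1000, which took up 56.7%. The 641 long gaps of the series' list fell into 557 separate gaps of replicate 1 and 500 of replicate 2.

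**Figure D5:**
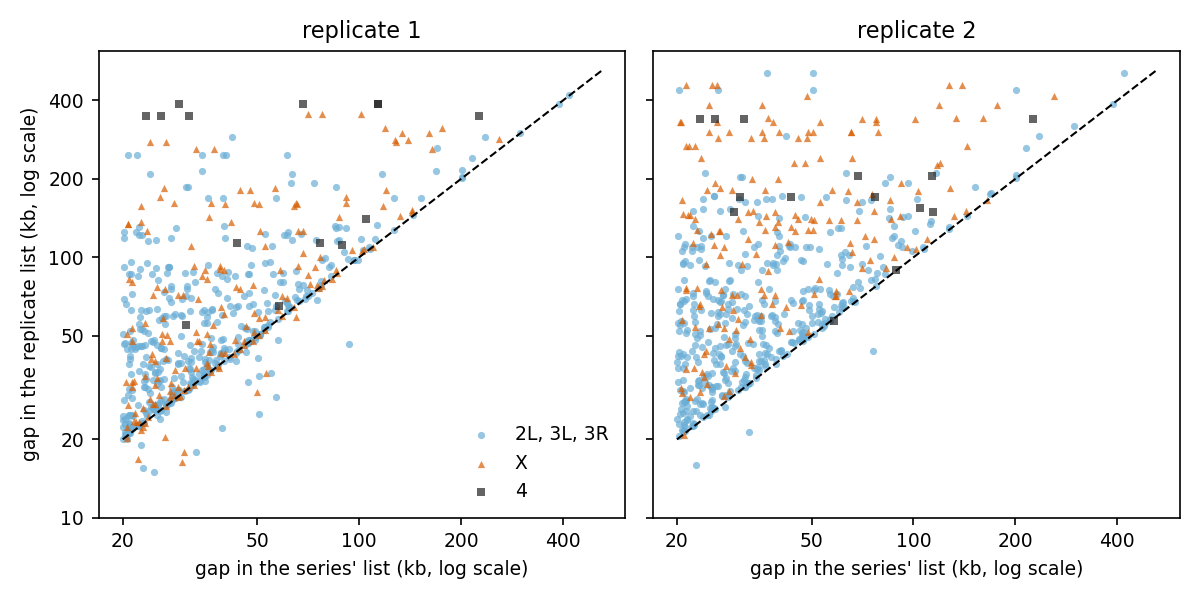
Length of the matching gap in replicate 1 (left) and replicate 2 (right) against the length of each long gap of the series' list, both in kb on log scales, with a dashed line at equal length. Points lie mostly on or above the line, farthest above it for chromosome 4 in both replicates and for X in replicate 2.

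The matching gaps were longer than the series' gaps by a factor that varied among chromosomes. The median ratio was 1.25 in replicate 1 and 1.69 in replicate 2. In replicate 1 it was 1.26 on 2L, 1.26 on 3L, 1.09 on 3R, 1.42 on X and 3.00 on 4. In replicate 2 it was 1.67 on 2L, 1.33 on 3L, 1.46 on 3R, 2.79 on X and 2.61 on 4. The gap was more than 2 times as long for 167 long gaps in replicate 1 and for 273 in replicate 2, of which 55 and 112 lay on X. Replicate 2 listed 770 regions on X and replicate 1 listed 1188, and the part of this difference in the gap lengths was not tested.

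The replicates placed edges alike more often on the large autosomal arms than on X. Of 1282 edges, 297 (23.2%) lay within 1 kb of each other in the 2 replicates, and 619 (48.3%) within 5 kb. Where a replicate gap held several long gaps, its edges were counted once for each of them. Within 1 kb the share was 22.6% on 2L, 30.5% on 3L, 32.9% on 3R, 9.66% on X and 14.3% on 4. The median distance between the replicates' edges was 5363 bp on 2L, 3122.5 bp on 3L, 2702.5 bp on 3R, 18558 bp on X and 6335 bp on 4. Edges were thus nearest on 3R and farthest apart on X.

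For 17 long gaps (2.65%) all 4 replicate edges lay within 1 kb of the series' edges, and none of the 17 was on X or 4. They include the gaps of 388370 bp on 3R and 201416 bp on 3L named above. The next longest, on 3R from 3927706 to 4071529, measured 143824 bp in the series' list, 144832 bp in replicate 1 and 144436 bp in replicate 2. After it came a gap of 3L, from 8960058 to 9067753, that measured 107696, 107788 and 108048 bp. Such edges were found in 11 of the 471 gaps of 20 to 50 kb (2.34%), 2 of the 127 of 50 to 100 kb (1.57%) and 4 of the 43 of 100 kb and over (9.30%), with no steady order by length. Edges within 5 kb of each other in the 2 replicates made up 47.9%, 50.4% and 46.5% in these classes.

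Some long gaps lay side by side. In 79 runs, 2 or more long gaps were parted by a lone region each, and these runs held 172 of the 641 gaps (26.8%). Long gaps were 5.45% of all gaps, and how many runs their frequency on each sequence would give was not worked out. The runs numbered 18 on 2L, 15 on 3L, 17 on 3R, 25 on X and 4 on chromosome 4. Of these runs 66 had 2 gaps, 12 had 3 and 1 had 4. The run of 4 lay on 2L from 10198030 to 10345618 (147589 bp), with 97.2% of its length in gaps and regions scoring 0.30 to 0.38 between them. The 93 regions between long gaps had a median width of 1827 bp and a median score of 0.46. Neither replicate overlapped 38 of them (40.9%), and both overlapped 16 (17.2%), where the backgrounds were 39.9% and 26.2%. Replicate 1 overlapped 44 (47.3%) and replicate 2 overlapped 27 (29.0%), against 43.7% and 42.3% of the regions that border no long gap. The narrowest regions that part gaps of 50 kb and over from each other were 1001 to 1293 bp wide. They lay on X (3), on 2L (1) and on chromosome 4 (1), and neither replicate overlapped any of these 5. All were narrower than 1301 bp, a width below which neither replicate lists any region. Of all regions under 2000 bp, neither replicate overlapped 68.1% of those that border a long gap and 71.0% of those that border none.

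On chromosome 4 the long gaps were the rule and enriched regions the exception. Its 14 long gaps ranged from 23406 to 226017 bp, with a median of 63213 bp. The longest, from 346577 to 572593, was empty in both replicates and lay within gaps of 347756 bp in replicate 1 and 339995 bp in replicate 2. The next, from 813129 to 927146 (114018 bp), lay within a gap of 387175 bp in replicate 1 and one of 149196 bp in replicate 2. That gap of replicate 1 held 4 long gaps of the series' list. Of the 14, 12 held no base of either replicate. Replicate 1 covered 1588 bp in the gap from 1264579 to 1308182, and replicate 2 covered 1485 bp in the gap from 190790 to 248852. The 5 regions that parted adjacent long gaps on this chromosome were 1189 to 1881 bp wide, and neither replicate overlapped any of them. At widths under 2000 bp this held for 68.1% of all border regions. Over all widths on chromosome 4, neither replicate overlapped 14 of the 23 border regions and 8 of the 25 others.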

How the data were processed

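ChIP-seq of H3K27me2 was deposited as 3 lists of enriched regions, 1 per replicate and 1 for the series. Per the file headers, coordinates are FlyBase release 5. Each score was deposited by the authors without a stated scale. The submitters' processing notes list Bowtie 0.12.7. How regions were called, how the 2 inputs were used and how the replicates were combined is not given in the sources used here. The depth per sample is unknown.

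Regions were trimmed at the sequence ends, and gaps, cover by base and overlaps (at least 1 bp) were computed in Python 3.11.15 with numpy 2.4.6 and pandas 2.3.3. The arithmetic was tested on simulated regions. The matching gap of a replicate is the one that shares most bases with the series' gap, with sequence ends counted as borders. Members, lists and named gaps were chosen with earlier results of these data known. Named gaps are the 20 longest, the 2 longest per sequence, the 3 of 50000 bp and over with the highest mean replicate cover and the 3 on each side of the limit. The 5 narrowest regions between gaps of 50000 bp and over are also named. Edge agreement, runs and profiles were chosen after seeing the data. No test was run, because the members come from calls on the same samples.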

Additional observations from a re-analysis of the deposited data

How the results depend on the processing

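No paired analysis was possible because values were at hand for the ChIP group alone. Of 52 values recomputed under 11 alternatives for 7 results, 30 stayed within the tolerance set for their kind and 22 moved past it. A change of sign was not possible for any of these results. The tolerance was 1.5 times the reported value for counts, 1 SD between replicates for cover, and the 95% binomial interval for shares and medians. It is wide for cover (0.235% ± 0.217) and narrow for the share of sequence (29.82% to 29.84%). With a limit of 10000 bp there were 1376 long gaps on 40.3% of the sequence, 806 untouched and 1364 inside replicate gaps. With 50000 bp there were 170 on 15.5%, 101 untouched, 161 inside, and a border width of 1869 bp. These follow from the limit. Without regions below the 25th percentile of scores, long gaps took up 38.0%, replicate cover was 1.48%, and borders had a median score of 0.49 and width of 2510 bp, since gaps then contain the omitted regions. Without regions narrower than 1301 bp the share was 35.2% and the border width 2383 bp. Omission of the proximal 2 Mb gave 30.3%. On 2L, 3L and 3R alone the share was 26.1%, and the border score and width were 0.44 and 2079 bp. Without the outer 2000 bp of each gap 592 gaps were untouched. Merging regions closer than 1000 bp gave borders of 3005 bp. Leaving out a replicate gave 421 to 578 untouched gaps, a cover of 0.0813% to 0.388% and 632 to 640 gaps inside a replicate gap. The planned look at gene lists was not run, since no release 5 gene table was used here.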

Other observations

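Long gaps also lay on sequences outside the 5 described. Arm 2R held 139, which took up 25.3% of it, and the longest measured 205284 bp. Replicates 1 and 2 covered 0.416% and 0.0500% of their bases. The assembled pericentric scaffolds differed from each other, with 14 long gaps on 2RHet (22.6% of it), 8 on 3RHet (12.9%), 5 on 3LHet (6.61%), 2 on 2LHet (23.4%), 1 on XHet (15.4%) and 0 on YHet. Unplaced sequence U held 66 (20.7%). On U the replicates covered 0.304% and 0.312% of the gap bases, nearly alike, unlike on 2R.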
